A study of Homo sapiens with 8 samples.

Results

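The genes described here are 10 amino acid transporters of the plasma membrane: SLC1A4, SLC1A5, SLC3A2, SLC6A9, SLC7A1, SLC7A5, SLC7A11, SLC38A1, SLC38A2 and SLC43A1. They were chosen by gene symbol from a deposited table of 58870 genes, and all 10 symbols were found in it. RNA sequencing had been carried out on Panc 10.05, a long-established cell line from a human pancreatic ductal adenocarcinoma, in 4 libraries of control cells and 4 libraries of cells overexpressing an ELAPOR1 transgene. ELAPOR1 is a transmembrane protein of endosomes and lysosomes. The vector of the transgene, what the control cells carried, whether the cells were a clone or a pool, and whether the libraries came from separate cultures are not given in the sources used here. The p-values below therefore measure the spread between these libraries, which may be technical. Levels are given as CPM (counts per 1e6 counts of a library), scaled between libraries with TMM factors, and a fold change is that of ELAPOR1 over control.

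Amino acid transporters of the plasma membrane work as a network. Sodium-coupled carriers such as SLC38A1 and SLC38A2 load the cell with small neutral amino acids, and exchangers such as SLC1A5, SLC7A5 and SLC7A11 spend part of that pool to bring in others. SLC3A2 (CD98 heavy chain) carries no amino acid itself, but is joined by a disulfide bond to the light chains SLC7A5 and SLC7A11 and takes them to the cell surface. When amino acids are short or the endoplasmic reticulum is stressed, kinases that phosphorylate eIF2 raise the translation of the transcription factor ATF4, and several of these transporter genes are known ATF4 targets. SLC7A11 is also a known target of NFE2L2 (NRF2), the regulator of the antioxidant response. Leucine brought in by SLC7A5 and SLC3A2 is sensed at the lysosome by the machinery that activates the growth kinase mTORC1.

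ATF4 binds as a dimer with C/EBP proteins to a composite element, and the matches to its letters in the promoters of the tested transporters are shown first because ATF4 and its targets are described further on. Promoter windows were taken from RefSeq on GRCh38.p14 and run from 250 bases before to 50 bases after an annotated start. A window was found for 9 of the 10 genes (16 windows), and for SLC7A11 none was found. On either strand, TGATGNAA was present in 5 of these 16 windows, and in 3.62% of all 35116 windows of the same length. Capitals mark the match, and each line is read 5′ to 3′ on the gene's strand. The positions are chr19:46784893-46784922 for SLC1A5, chr11:62881725-62881748 for SLC3A2, chr13:29595663-29595692 for SLC7A1 and chr12:46266502-46266531 for SLC38A1. SLC3A2 is on the plus strand and the other three are on the minus strand.
SLC1A5: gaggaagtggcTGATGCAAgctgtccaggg
SLC3A2: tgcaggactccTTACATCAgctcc
SLC7A1: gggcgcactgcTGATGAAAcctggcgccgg
SLC38A1: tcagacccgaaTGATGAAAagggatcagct
The matches of SLC3A2 and SLC7A1 lie downstream of their starts, in annotated exons. That of SLC1A5 lies upstream of its start, with 2 of its bases in an annotated exon. That of SLC38A1 runs across its start. In these windows the starts of SLC1A5, SLC3A2 and SLC38A1 lie inside the annotated extent of the gene, not at its edge. The fifth match was in the promoter of SLC1A4. A match is a description of letters only, and nothing was measured on binding there.

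Other letters known for regulators of these genes were searched in the same windows on both strands. The core of the antioxidant response element, TGACNNNGC, was present in 4 of the 16 windows, and in 13.3% of all windows. Those 4 belonged to SLC1A5, SLC3A2, SLC7A1 and SLC7A5. The E-box CACGTG, a site for MYC and related factors, was present in 3 of the 16 windows, and in 7.26% of all windows. Those 3 belonged to SLC1A5, SLC7A5 and SLC43A1. The antioxidant core and the E-box of SLC1A5 lie at another start of the gene than its TGATGNAA match. Stretches upstream of the start are given for the SLC3A2 heavy chain, at chr11:62881521-62881670 on the plus strand, and for its light chain SLC7A5, at chr16:87869608-87869757 on the minus strand, because these partners are compared below. Capitals mark the antioxidant core in SLC3A2 and the E-box in SLC7A5.
SLC3A2: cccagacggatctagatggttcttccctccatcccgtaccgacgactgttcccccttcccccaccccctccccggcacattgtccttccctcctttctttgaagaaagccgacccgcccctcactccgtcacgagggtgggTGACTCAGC
SLC7A5: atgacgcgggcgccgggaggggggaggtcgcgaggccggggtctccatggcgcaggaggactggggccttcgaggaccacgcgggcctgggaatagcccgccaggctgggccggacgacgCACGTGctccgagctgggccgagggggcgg

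Control libraries held between 16558600 and 18128757 counts, and ELAPOR1 libraries between 13765509 and 17258166. ELAPOR1 itself was at 0.150 ± 0.107 CPM (SD, n = 4) in control and 427 ± 2.28 CPM (SD, n = 4) in the ELAPOR1 libraries, as labelled. All 7 epithelial and ductal markers were detected, with a summed level of 12008.5 to 13279.8 CPM in control and 11236 to 11579 CPM in ELAPOR1. Of the other cell types, 5 of 6 fibroblast, 4 of 5 immune, 3 of 4 endothelial and 4 of 4 endocrine markers had at most 10 counts in every library, and the 5 acinar markers were at 0. The exceptions were COL1A1, CD68 and VWF. Their means were 3.35, 84.4 and 1.69 CPM in control and 2.93, 75.7 and 0.761 CPM in ELAPOR1. The sums of their classes thus rested mostly on these genes. Summed fibroblast markers ranged from 2.95 to 4.32 CPM in control and from 2.71 to 3.19 CPM in ELAPOR1, and summed immune markers from 82.4 to 88.1 CPM and from 73.0 to 79.3 CPM. Summed endothelial markers ranged from 1.62 to 2.13 CPM in control and from 0.576 to 0.998 CPM in ELAPOR1, and their part in the results was not tested. In a bulk library, fewer cells of a type and less RNA per cell cannot be told apart.

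Of the 10 transporters, 8 passed the filter on low counts and 6 were lower in ELAPOR1 at an edgeR adjusted p under 0.05: SLC38A2, SLC38A1, SLC1A5, SLC3A2, SLC7A11 and SLC6A9. Among all 13860 tested genes 44.7% passed this threshold, 22.1% lower and 22.6% higher, so that a call by itself was common in this comparison. No tested transporter of the 10 was higher, with 0 at an unadjusted p under 0.05 in edgeR and 0 adjusted calls by DESeq2 or limma-voom. The same 6 transporters were called by DESeq2 and by limma-voom, which called 40.4% and 43.7% of all tested genes, at an edgeR adjusted p under 0.01 (33.8% of all) and with GC and length trends removed (46.8% of all). The median log2 fold change of the 8 tested transporters was -0.29, and that of all tested genes was 0.0009, with the 5th and 95th percentiles at -0.59 and 0.52. The 10 were chosen with earlier results of these data known, so their calls and median are a description and not an independent test. In the 6 genes that fell, the libraries of the groups did not overlap. Over all tested genes, 19.3% were lower in ELAPOR1 without overlap. Against a null of a 1.5-fold change, edgeR called 1.55% of all tested genes and 0 of the 8 transporters, 1 of which (SLC6A9) had an unadjusted p under 0.05. The falls were thus of moderate size, from -16.1% in SLC1A5 to -41.1% in SLC6A9.

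**Figure D1:**
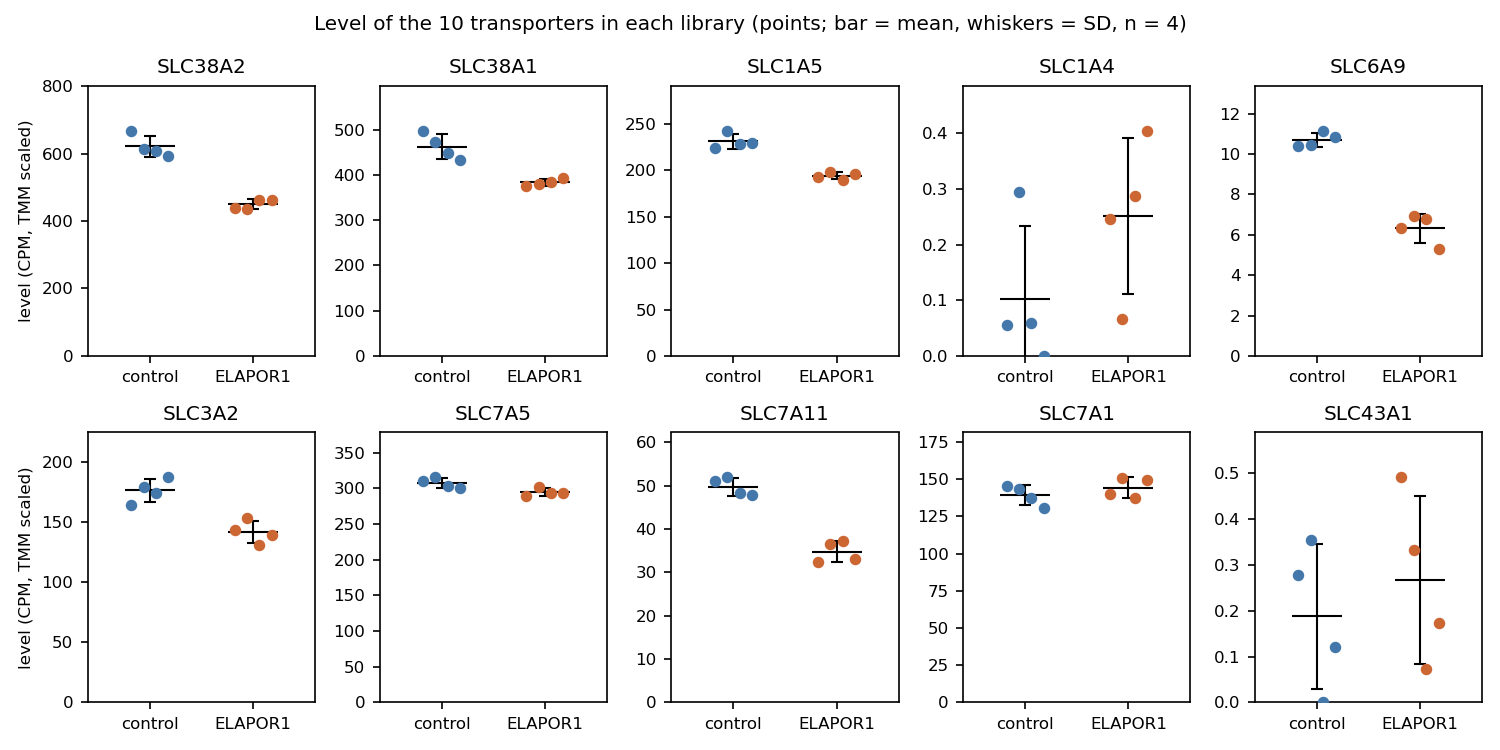
Level of each of the 10 transporters in CPM (vertical axes, TMM scaled) in the 4 control and 4 ELAPOR1 libraries. Points are libraries, bars are means and whiskers are SDs; the groups are apart for SLC38A2, SLC38A1, SLC1A5, SLC3A2, SLC7A11 and SLC6A9, and overlap for SLC7A5, SLC7A1, SLC1A4 and SLC43A1.

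SLC38A2 (SNAT2; ENSG00000134294.14, GRCh38 chr12:46358189-46372867) is the sodium-coupled carrier of alanine, serine and glutamine whose gene is known to be induced by amino acid shortage. Control libraries 1 to 4 had 667, 614, 609 and 594 CPM, and ELAPOR1 libraries 1 to 4 had 439, 435, 463 and 462 CPM. The lowest control library was thus well above the highest ELAPOR1 library. The mean fell from 621 ± 31.9 to 449.6 ± 14.8 CPM (SD, n = 4 each). It thus fell by 27.6%, or a log2 fold change of -0.47 with a standard error of 0.0326 (edgeR adjusted p 2.8e-13).

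SLC38A1 (SNAT1; ENSG00000111371.15, chr12:46183063-46270017) is a carrier of the same family, with glutamine as a main substrate, and its gene is near that of SLC38A2. Its level was 497, 472, 448 and 433 CPM in control and 375, 381, 386 and 394 CPM in ELAPOR1. Here too every ELAPOR1 library lay below every control library. The mean fell from 463 ± 28.3 to 384 ± 7.99 CPM (SD, n = 4 each), by 17.0%, with a log2 fold change of -0.27, a standard error of 0.0341 and an edgeR adjusted p of 1.2e-07.

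These carriers did not fall by the same amount. For each SLC38A1 count there were 1.34, 1.30, 1.36 and 1.37 SLC38A2 counts in control, and 1.17, 1.14, 1.20 and 1.17 in ELAPOR1. All ELAPOR1 ratios were below all control ratios. The mean ratio went from 1.34 ± 0.0312 to 1.17 ± 0.0245 (SD, n = 4 each), a change of -0.20 on the log2 scale. A two-sided exact permutation test gave p = 0.0286, the smallest that 4 against 4 libraries allow, and 0.0429 after Benjamini-Hochberg adjustment over the 3 ratios taken. A ratio within a library does not depend on how libraries were scaled, but GC and length trends were not removed from it. With those trends removed, the log2 fold changes were -0.50 for SLC38A2 and -0.33 for SLC38A1.

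SLC1A5 (ASCT2; ENSG00000105281.12, chr19:46774883-46788594) exchanges glutamine, serine and other neutral amino acids, and is a main route of glutamine into many tumour cells. It was at 224, 242, 229 and 229.6 CPM in control, and at 193, 198, 189 and 196 CPM in ELAPOR1. The ELAPOR1 libraries were close together and all below control. The level fell from 231 ± 7.78 to 194 ± 3.80 CPM (SD, n = 4 each), by 16.1%, at a log2 fold change of -0.25 with a standard error of 0.0322 (edgeR adjusted p 6.0e-08).

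SLC1A4 (ASCT1; ENSG00000115902.11, chr2:64988477-65023865), the other neutral amino acid exchanger of that family, was hardly detected. It had 1, 5, 1 and 0 counts in control and 4, 1, 4 and 7 counts in ELAPOR1, or 7 against 16 in sum. The groups overlapped, the gene failed the filter, and its ratio to SLC1A5 was not taken because control replicate 4 had 0 counts. With no filter beyond 1 count its edgeR adjusted p was 0.357, so a difference was not detectable at this depth.

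SLC3A2 (ENSG00000168003.16, chr11:62856102-62888875), the shared heavy chain, was at 164, 179, 174 and 187 CPM in control and 143, 153, 131 and 139 CPM in ELAPOR1. The highest ELAPOR1 library remained under the lowest control library. The mean fell from 176 ± 9.47 to 142 ± 9.42 CPM (SD, n = 4 each), by 19.5%. The log2 fold change was -0.31 with a standard error of 0.0430 and an edgeR adjusted p of 1.4e-06.

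SLC7A11 (xCT; ENSG00000151012.13, chr4:138164097-138242349), the light chain that takes up cystine in exchange for glutamate and so feeds glutathione synthesis, was also lower. It was at 50.9, 51.9, 48.2 and 47.7 CPM in control and at 32.3, 36.6, 37.1 and 33.0 CPM in ELAPOR1. The lowest control library stood well above the highest ELAPOR1 library. The mean went from 49.7 ± 2.03 to 34.8 ± 2.45 CPM (SD, n = 4 each) and so fell by 30.2%, or -0.52 on the log2 scale with a standard error of 0.0562 (edgeR adjusted p 2.2e-09). Its antisense gene SLC7A11-AS1 had 0 to 4 counts per library.

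SLC7A5 (LAT1; ENSG00000103257.9, chr16:87830023-87869488), the light chain that carries leucine and other large neutral amino acids, did not pass the threshold. It was at 311, 315, 303 and 300.4 CPM in control and 289.7, 302, 293 and 293 CPM in ELAPOR1. ELAPOR1 library 2 reached into the range of control libraries 3 and 4. The means were 307 ± 6.92 and 294.6 ± 5.47 CPM (SD, n = 4 each), with a log2 fold change of -0.061, a 95% interval from -0.12 to -0.0012 and an edgeR adjusted p of 0.0912. Without control replicate 4 the call was made, at -0.072 and an edgeR adjusted p of 0.0413. Its pseudogenes SLC7A5P1 and SLC7A5P2 had 0 to 5 and 0 to 4 counts per library, and reads could be split among such copies.

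The balance of light chain to heavy chain transcripts was therefore compared within each library. There were 1.89, 1.76, 1.74 and 1.61 SLC7A5 counts for each SLC3A2 count in control, and 2.02, 1.97, 2.24 and 2.11 in ELAPOR1. The control ratios fell in order from library 1 to library 4, as did the control levels of SLC38A1 and SLC38A2. Every ELAPOR1 ratio exceeded every control ratio. The mean went from 1.75 ± 0.116 to 2.08 ± 0.119 (SD, n = 4 each), a log2 difference of 0.25, with a two-sided exact permutation p of 0.0286 (0.0429 adjusted over the 3 ratios).

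For SLC7A11 the ratio to SLC3A2 was 0.310, 0.289, 0.277 and 0.255 in control and 0.226, 0.239, 0.284 and 0.237 in ELAPOR1. ELAPOR1 library 3 lay among the control libraries. The means were 0.283 ± 0.0229 and 0.246 ± 0.0258 (SD, n = 4 each), and the log2 difference of -0.20 gave an exact permutation p of 0.0857, both before and after adjustment. A larger fall of SLC7A11 than of its heavy chain was thus not resolved from the spread between libraries. These are ratios of counts, which also reflect transcript length, and not ratios of molecules. With GC and length trends removed, the log2 fold changes were -0.057 for SLC7A5, -0.54 for SLC7A11 and -0.27 for SLC3A2.

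**Figure D2:**
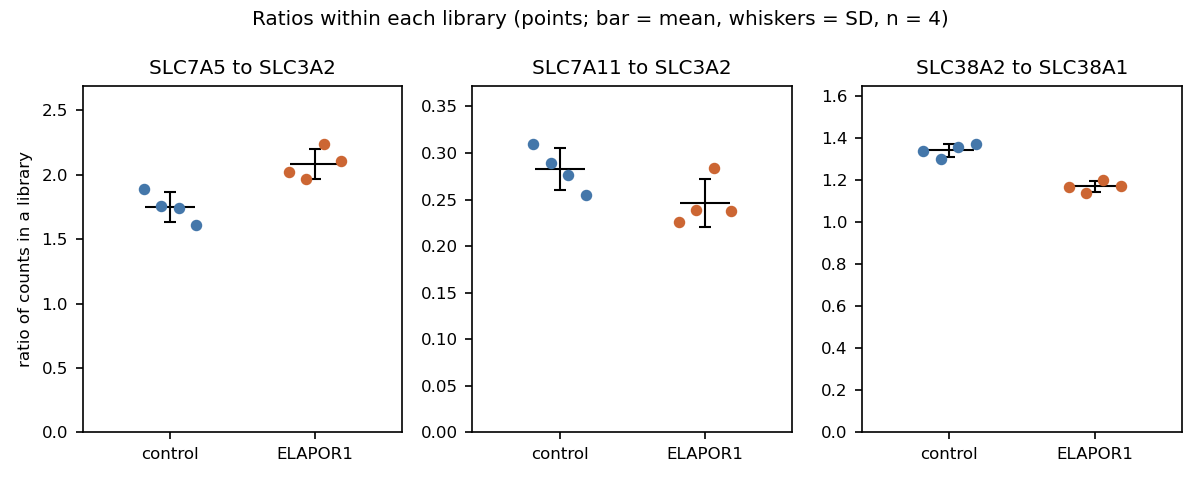
Ratio of counts within each library (vertical axes) for SLC7A5 to SLC3A2, SLC7A11 to SLC3A2 and SLC38A2 to SLC38A1, in control and ELAPOR1. Points are libraries, bars are means and whiskers are SDs (n = 4); the groups are apart for SLC7A5 to SLC3A2 and SLC38A2 to SLC38A1, and overlap for SLC7A11 to SLC3A2.

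SLC6A9 (GlyT1; ENSG00000196517.11, chr1:43991500-44031467), a sodium- and chloride-coupled carrier of glycine, had the largest fall of the 8 tested transporters and the lowest level among them. Control libraries had 10.4, 10.4, 11.1 and 10.9 CPM, and ELAPOR1 libraries had 6.32, 6.92, 6.77 and 5.31 CPM. The groups stood clearly apart, at 177 to 188 counts against 92 to 104 counts per library. The mean fell from 10.7 ± 0.349 to 6.33 ± 0.727 CPM (SD, n = 4 each), by 41.1%, at a log2 fold change of -0.76 with a standard error of 0.110 (edgeR adjusted p 6.3e-07). CCDC24 overlaps it on the opposite strand, with 58 to 107 counts per library and means of 5.06 CPM in control and 4.55 CPM in ELAPOR1. Whether counting used strand is not given in the sources used here, and any share of reads between these genes was not tested.

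SLC7A1 (CAT1; ENSG00000139514.13, chr13:29509410-29595688) takes up arginine, lysine and ornithine, and did not pass the threshold. It was at 146, 143, 137 and 130.5 CPM in control and at 140.1, 151, 137 and 149 CPM in ELAPOR1. The groups overlapped over most of their range. The means were 139 ± 6.80 and 144 ± 6.78 CPM (SD, n = 4 each), with a log2 fold change of 0.053, a 95% interval from -0.026 to 0.13 and an edgeR adjusted p of 0.285. The sign was not stable, since removing GC and length trends gave -0.013 (edgeR adjusted p 0.784). SLC43A1 (LAT3; ENSG00000149150.9, chr11:57484534-57515786), a facilitator of large neutral amino acids that needs no heavy chain, had 5, 6, 0 and 2 counts in control and 8, 5, 1 and 3 counts in ELAPOR1. It failed the filter, and with no filter beyond 1 count its edgeR adjusted p was 0.685.

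**Figure D3:**
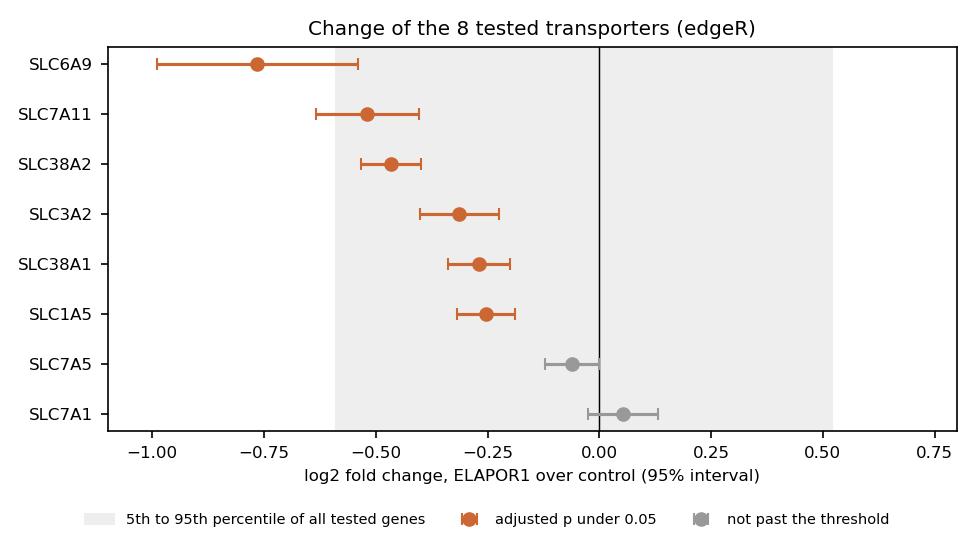
Log2 fold change of ELAPOR1 over control (horizontal axis) with its 95% interval for the 8 tested transporters, from edgeR. The grey band is the 5th to 95th percentile of all tested genes, from -0.59 to 0.52; SLC6A9, at -0.76, lies outside it, and the interval of SLC7A1 spans 0.

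To compare levels between genes, CPM were divided by the length of a gene's merged exons in GENCODE 29. In control, SLC38A2 had the highest level of the 10, at 94.1 ± 4.83 CPM per kilobase (SD, n = 4), ahead of SLC1A5 at 69.4 ± 2.33, SLC7A5 at 64.8 ± 1.46, SLC38A1 at 46.2 ± 2.83 and SLC3A2 at 34.0 ± 1.83. SLC7A1 followed at 18.1 ± 0.884, SLC7A11 at 5.15 ± 0.211 and SLC6A9 at 2.08 ± 0.0676 CPM per kilobase, and SLC43A1 and SLC1A4 were at 0.0533 and 0.0148. Levels per length of SLC38A2, SLC1A5, SLC38A1 and SLC7A5 were thus above that of the cystine carrier SLC7A11.

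In ELAPOR1, SLC38A2 was at 68.1 ± 2.24 CPM per kilobase, SLC7A5 at 62.1 ± 1.15 and SLC1A5 at 58.2 ± 1.14 (SD, n = 4 each). On this length SLC1A5 and SLC7A5 changed places. In control the libraries of SLC1A5 ran from 67.3 to 72.7 CPM per kilobase, above those of SLC7A5 at 63.3 to 66.5. In ELAPOR1 they ran from 56.8 to 59.4, below those of SLC7A5 at 61.0 to 63.7. The exchange was not seen with the length of the longest transcript, where SLC1A5 was above SLC7A5 in control (80.2 ± 2.70 against 67.7 ± 1.52 CPM per kilobase) and in ELAPOR1 (67.3 ± 1.32 against 64.9 ± 1.21). With the longest transcript, SLC3A2 (2222 bases in place of 5178) stood at 79.3 ± 4.26 CPM per kilobase in control, which did not differ from SLC1A5 beyond the spread.

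**Figure D4:**
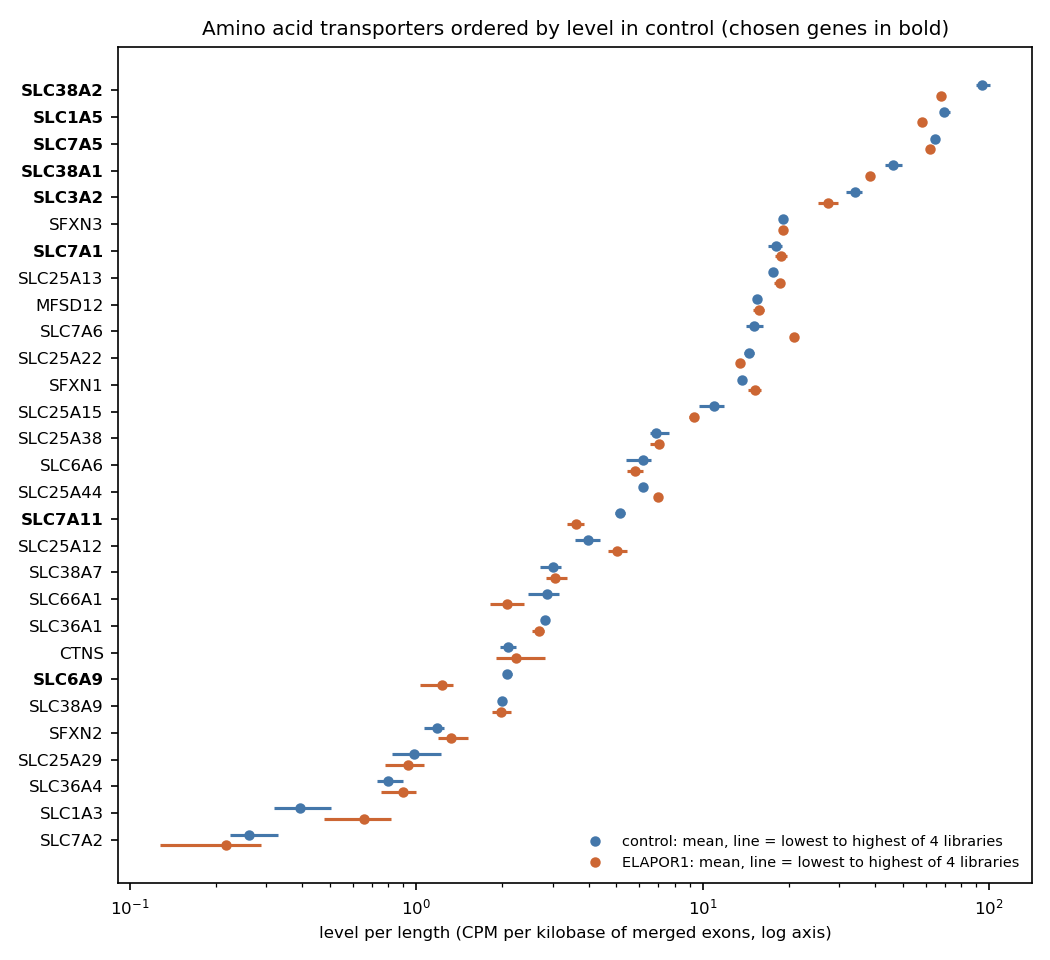
Level per length (horizontal log axis, CPM per kilobase of merged exons) of 29 amino acid transporters above 0.25 in control, with the 10 chosen genes in bold where they reach that level. Points are means and lines run from the lowest to the highest of 4 libraries in control and ELAPOR1; SLC38A2 is at the top in both groups.

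The other amino acid transporters were read from the same fit. Of 31 further plasma membrane transporters, 25 were not tested, all with at most 10 counts in every library. Of the 6 tested, 2 were called and both were higher, against 44.7% of all tested genes called and 22.6% higher, and the median log2 fold change was 0.037. SLC7A6, another light chain of SLC3A2 that exchanges cationic for neutral amino acids, was at 124, 112, 116 and 107 CPM in control and 161, 164, 153 and 154 CPM in ELAPOR1. It rose in all ELAPOR1 libraries relative to all control libraries, from 115 ± 6.83 to 158 ± 4.89 CPM (log2 fold change 0.46, edgeR adjusted p 8.7e-12). SLC7A6 overlaps SLC7A6OS on the opposite strand, and its 20 tested neighbours in the genome had a median log2 fold change of 0.22. Of these neighbours, 11 were called higher and 2 lower, against 22.6% and 22.1% of all tested genes. SLC1A3, a glutamate and aspartate carrier, rose from 2.47 ± 0.502 to 4.12 ± 1.02 CPM (log2 fold change 0.73, edgeR adjusted p 3.3e-03), although its groups overlapped. The taurine carrier SLC6A6, singled out after its values were seen, was at a log2 fold change of -0.092 (edgeR adjusted p 0.193). It was called lower without control replicate 4 (-0.15, edgeR adjusted p 0.0201) and with GC and length trends removed (-0.16, edgeR adjusted p 8.4e-03).

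Transporters of the lysosome and mitochondria were read next. Of 7 lysosomal transporters, 6 were tested and 1 was called, a share below the 44.7% of all tested genes. That gene, SLC66A1, which exports cationic amino acids from the lysosome, fell from 7.71 ± 0.795 to 5.57 ± 0.637 CPM (log2 fold change -0.47, edgeR adjusted p 2.8e-03). The list's median was 0.0044. Of 12 mitochondrial carriers, 10 were tested, 3 were higher and 2 lower, a share of calls near the 44.7% of all tested genes, with a median of 0.056. SLC25A12, the aspartate-glutamate carrier, rose from 20.7 ± 1.80 to 26.0 ± 1.68 CPM (log2 fold change 0.33, edgeR adjusted p 3.0e-04). SLC25A44, a carrier of branched-chain amino acids, rose from 45.0 ± 1.003 to 50.99 ± 0.315 CPM (0.18, edgeR adjusted p 2.6e-03), a call that was lost with GC and length trends removed (0.11, edgeR adjusted p 0.0506). SLC25A15, the ornithine carrier, fell from 20.1 ± 1.68 to 17.1 ± 0.536 CPM (-0.23, edgeR adjusted p 0.0144). The other called genes, named after their values were seen, were the serine carrier SFXN1 (log2 fold change 0.15) and the glutamate carrier SLC25A22 (-0.11). Without control replicate 2 the mitochondrial calls numbered 3 in place of 5, and SLC25A15 was at -0.19 with an edgeR adjusted p of 0.0704.

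ATF4, its upstream kinases and its known targets outside the transporters formed a list of 26 genes, of which 24 were tested. Of these, 12 were lower and 5 higher, against 22.1% and 22.6% of all tested genes, and the median log2 fold change was -0.19. ATF4 itself was at 349, 368, 366 and 406 CPM in control and 257, 259, 255 and 264 CPM in ELAPOR1. The ELAPOR1 libraries lay close together and far below control. The mean fell from 372 ± 23.8 to 259 ± 3.86 CPM (log2 fold change -0.53, edgeR adjusted p 1.1e-13). ATF4 is controlled largely at translation, and protein was not measured in these libraries.

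Among the ATF4 targets, PHGDH, the first enzyme of serine synthesis from glucose, fell from 6.69 ± 0.359 to 1.96 ± 0.252 CPM (log2 fold change -1.75, edgeR adjusted p 6.4e-11). CHAC1, which degrades glutathione, fell from 9.37 ± 0.476 to 4.92 ± 0.599 CPM (-0.92, edgeR adjusted p 1.2e-07). ATF5, a related transcription factor, went the other way, from 42.8 ± 2.09 to 80.5 ± 1.76 CPM (0.91, edgeR adjusted p 2.3e-17). The list was therefore mixed, with more genes lower than higher. The other 4 that rose were the eIF2 kinases EIF2AK1 (log2 fold change 0.18) and EIF2AK2 (0.33), the transcription factor ATF3 (0.32) and the proline synthesis enzyme ALDH18A1 (0.17), all named after their values were seen. So was ASNS, the asparagine synthetase often used as a readout of ATF4, which fell from 111 ± 6.68 to 62.4 ± 1.03 CPM (-0.84, edgeR adjusted p 4.3e-17). Named in the same way, DDIT4 (-0.64), TRIB3 (-0.63), CEBPB (-0.54), DDIT3 (-0.54) and PSAT1 (-0.47) were called lower. MTHFD2 (-0.22), PYCR1 (-0.20) and PPP1R15A (-0.15) complete the genes called lower.

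Of 29 genes that carry amino acid signals to mTORC1, all were tested, 7 were lower and 4 higher, and the median log2 fold change was -0.076. That share of calls was below the 44.7% of all tested genes. FNIP2, a partner of folliculin, rose from 13.4 ± 1.53 to 18.8 ± 2.31 CPM (log2 fold change 0.49, edgeR adjusted p 5.2e-05). LAMTOR4, a subunit of the Ragulator scaffold on the lysosome, fell from 34.3 ± 3.09 to 25.8 ± 1.47 CPM (-0.41, edgeR adjusted p 7.2e-06). Its change was -0.25 with GC and length trends removed. The other 3 that rose, named after their values were seen, were the kinase MTOR (0.34), its partner RPTOR (0.26) and MIOS (0.21), a subunit of the GATOR2 complex. Named in the same way, LAMTOR2 (-0.27), LAMTOR5 (-0.27), RRAGC (-0.22), FNIP1 (-0.12) and SEH1L (-0.095) fell beside LAMTOR4 and CASTOR1. FNIP1 was at 69.6 CPM in control, above FNIP2. CASTOR1, an arginine sensor, was near the limit of detection at 0.985 ± 0.0884 and 0.494 ± 0.0446 CPM (-0.98, edgeR adjusted p 0.0251). That call was lost without control replicate 4 (adjusted p 0.0644 in edgeR), ELAPOR1 replicate 1 (0.0518) or ELAPOR1 replicate 3 (0.0585), with DESeq2 (adjusted p 0.0567) and with no filter beyond 1 count (edgeR adjusted p 0.0699). The log2 fold change was between -0.99 and -0.93 in those settings.

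Genes that use the cystine brought in by SLC7A11, or that act beside it, did not move in 1 direction. Of 14 genes of cystine and glutathione use, 13 were tested, 5 were lower and 3 higher, against 22.1% and 22.6% of all tested genes, and their median log2 fold change was -0.097. GCLM, the modifier subunit of the rate-limiting enzyme of glutathione synthesis, rose from 70.005 ± 2.81 to 101 ± 5.97 CPM (log2 fold change 0.53, edgeR adjusted p 5.6e-12). GSS, which completes glutathione, fell from 88.6 ± 4.95 to 71.5 ± 2.37 CPM (-0.31, edgeR adjusted p 5.2e-07). MPST, a sulfurtransferase that acts on a cysteine product, fell from 11.1 ± 1.30 to 8.34 ± 0.211 CPM (-0.41, edgeR adjusted p 1.4e-03). The remaining calls, named after their values were seen, were the ferroptosis suppressors GPX4 (-0.27) and AIFM2 (0.25), the thioredoxin reductase TXNRD1 (-0.26) and thioredoxin TXN (-0.097). NFE2L2 rose slightly, from 134 ± 3.96 to 149.8 ± 5.79 CPM (0.16, edgeR adjusted p 4.7e-04). SLC7A11, 1 of its known targets, was among the genes that fell. In this list GCLM rose, TXNRD1 fell, and GCLC (0.046) and GSR (-0.075) were not called. NFE2L2 protein was not measured in these libraries, and a link between these changes was not tested.

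**Figure D5:**
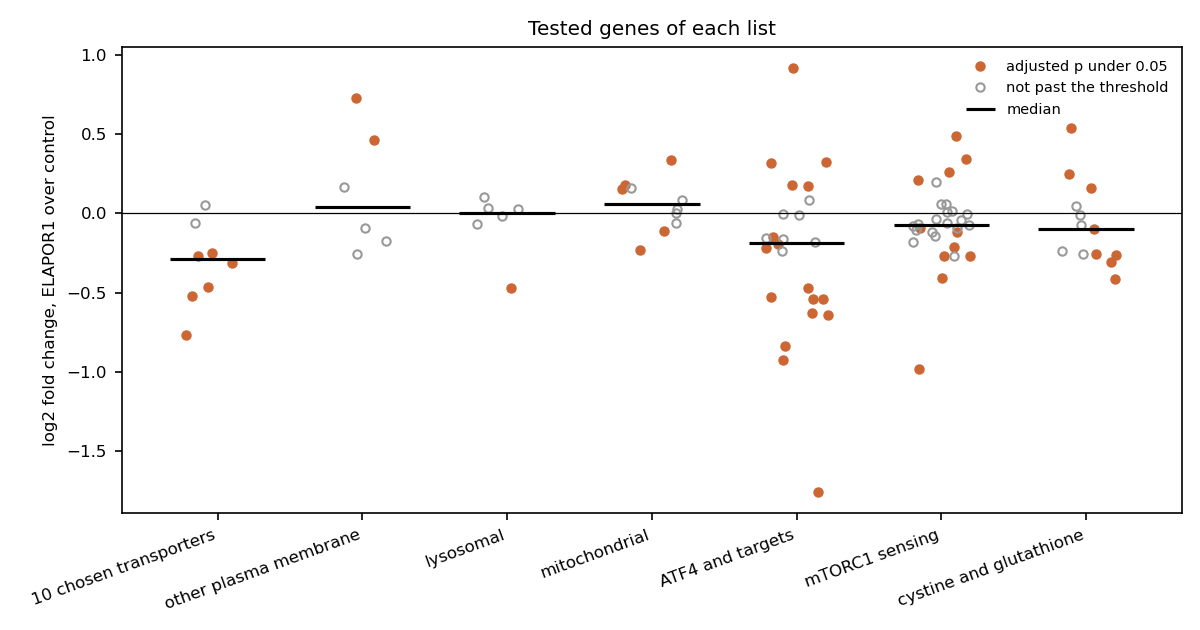
Log2 fold change of ELAPOR1 over control (vertical axis) for each tested gene of the transporter group and of the 6 other lists (horizontal axis). Filled points passed an edgeR adjusted p under 0.05 and lines are medians, from -0.29 for the chosen transporters to 0.056 for the mitochondrial carriers.

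The patterns of SLC3A2 and SLC7A11 over the 8 libraries were set beside those of the 10703 genes that averaged 5 CPM or more. The genes most like SLC3A2 were SLC44A3-AS1 (Pearson r 0.994), PHB2 (0.989) and PDXK (0.987). Those most like SLC7A11 were KIF3C (0.993), SPTLC2 (0.991) and MAP2K5 (0.990). These correlations are a description over 8 libraries that share the group difference, and SLC44A3-AS1 is an antisense gene whose reads could be counted for its partner.

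Neighbouring genes were read as a local background, taking the 10 nearest tested genes on each side. Around the genes that fell, the median log2 fold change of the neighbours was 0.13 for SLC1A5, -0.054 for SLC3A2, -0.12 for SLC6A9 and -0.039 for SLC7A11. It was 0.0008 for SLC38A1 and for SLC38A2, each of which is counted among the neighbours of the other. Each median was nearer to 0 than the fall of the gene it surrounds, or of opposite sign. Around SLC6A9, 8 of the 20 neighbours were called lower and 3 higher, against 22.1% and 22.6% of all tested genes. Around SLC7A5, which did not pass the threshold, the median was 0.16, with 7 called higher and 3 lower.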

How the data were processed

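Expected counts per gene for 8 libraries were deposited by the authors as a table of 58870 genes, unscaled, with 15.0% of nonzero values not whole. Cutadapt, STAR, RSEM, DESeq2 and the build hg38 are named in the submitters' processing notes, without roles or versions. After rounding to whole numbers, the comparison was fitted in edgeR 4.0.16 under R 4.3.3 (filterByExpr, TMM, robust glmQLFit and glmQLFTest, two-sided, Benjamini-Hochberg over 13860 tested genes). CPM are counts per 1e6 scaled by TMM, and errors are SDs over 4 libraries. Ratios were compared with exact permutation tests in scipy 1.17.1, and 3 of the 4 planned ratios could be taken. Library totals (13765509 to 18128757 counts) bound what is detectable for SLC1A4 and SLC43A1. Gene positions, lengths and overlaps are from GENCODE 29 (GRCh38), in which 58597 of the table's identifiers were found, and promoters from RefSeq (GRCh38.p14). ELAPOR1 is listed in the table as KIAA1324.

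The transporters and gene lists were chosen with earlier results of these data known. Genes named by rule are ELAPOR1, the 10 transporters, ATF4, NFE2L2, the 3 called genes of each other list with the largest change, and the 3 genes most correlated with SLC3A2 and with SLC7A11. Other genes of the lists were named after their values were seen. Alternatives were other scalings, filters, thresholds, DESeq2 1.42.0, limma 3.58.1 (voom), each library left out, a replicate block and, added after seeing the data, removal of GC and length trends. The main edgeR fit was run on simulated counts first.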

Additional observations from a re-analysis of the deposited data

Results flagged for a closer look

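In groups of 4 libraries, a library was singled out where its gap to the nearest other as a share of the group's range exceeded Dixon's 95% critical value. Of 64 such groups examined 2 met this, and chance gives about 1 in 20, or 3.2. LAMTOR4 was at 29.7 CPM in control replicate 1 and at 35.4 to 36.03 CPM in the other control libraries. MPST was at 8.65 CPM in ELAPOR1 replicate 1 and at 8.21 to 8.25 CPM in the other ELAPOR1 libraries. No library of the 10 transporters was singled out in this way.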

How the results depend on the processing

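SLC38A2, SLC38A1, SLC1A5, SLC3A2, SLC7A11 and SLC6A9 were called lower under 18 alternatives (other scalings, filters and tests, a replicate block, ELAPOR1 left out, GC and length trends removed, and each library left out) and also at a threshold of 0.01. The exception was the test against a 1.5-fold change, where edgeR called 215 genes over the whole table and 0 of the transporters (1 at an unadjusted p under 0.05, the smallest being 0.0161). The single reversal was SLC7A1, at -0.013 with GC and length trends removed. Over the whole table, calls ranged from 5557 to 6316 as each library was left out, against 6193 with all. The transporters called numbered 6 to 7, the highest without control replicate 4. Among pairs within a group, control libraries 1 and 4 differed most, with a chi-square per gene of 6.10. Pairs of ELAPOR1 libraries had 1.93 to 2.19, and the cause of the wider spread in control was not tested.

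The counts of some other lists changed by over 1.5 times. With GC and length trends removed, calls numbered 2 in place of 1 for lysosomal transporters and 3 in place of 5 for mitochondrial carriers, which was also the count at a threshold of 0.01. The mTORC1 list had 7 calls at 0.01 in place of 11. Against a 1.5-fold change, 3 of the 17 ATF4 list calls were left and 0 in the other 5 lists. The causes of these changes were not tested.

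Libraries with the same replicate number did not deviate together (correlations of -0.112, 0.0355, 0.0217 and -0.0848 over 10703 genes), so the numbers were not treated as pairs. With a replicate block, 5926 genes and 6 of the transporters were called. With the block the ratios' log2 differences of 0.25, -0.20 and -0.20 are the unblocked ones by construction, and the sign-flip exact p of 0.125, 0.25 and 0.125 cannot pass the threshold, since 0.125 is the smallest that 4 pairs allow. Leaving out each library gave 0.21 to 0.29 for SLC7A5 to SLC3A2, -0.27 to -0.16 for SLC7A11 to SLC3A2 and -0.21 to -0.19 for SLC38A2 to SLC38A1, with 3 against 4 libraries unable to reach an exact p under 0.0571. SLC1A4 and SLC43A1 were tested with no filter beyond 1 count, at 7 against 16 and 13 against 17 counts in sum, and a difference was not detectable at this depth.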
